A study of Mus musculus with 40 samples.

Results

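Integrins are the receptors that hold cells to the extracellular matrix, and laminins are the main adhesive proteins of basement membranes. The genes described here are the integrin alpha and beta subunit genes and the laminin alpha, beta and gamma chain genes of the mouse. They were taken by name from 3 gene count tables of kidney RNA (names starting with Itga, Itgb, Lama, Lamb or Lamc). Of 55867 gene names in all, 35 are described, 25 integrin genes and 10 laminin genes. Itgb1, the shared beta subunit of most laminin and collagen receptors, was left out because its counts in the same Control libraries differed between tables (24202 to 26951 in one, 5488 to 6195 in the other). The leukocyte integrin genes Itgam, Itgax, Itgal, Itgb2 and Itgae are described apart, which leaves 30 members.

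The study followed ischaemia-reperfusion injury (IRI), the stopping and release of renal blood flow, over time and with mesenchymal stromal cells (MSCs) as a treatment. All kidneys came from C57bl/6-wt mice. The temporal table held untreated Control kidneys and kidneys at 4 times of reperfusion (6, 24, 48 and 72 h). The table of the cell therapy held the same 4 Control libraries, AKI (treatment IRI, 6 h after reperfusion), and IRI kidneys named for primary human MSCs from bone marrow (BM-MSC) or umbilical cord (UC-MSC), with no time given. The third table held sham control (no surgery) and sham 24 h (24 h after surgery without IRI, although the treatment entry of its label reads IRI). The labels place MSC injection right after reperfusion under the same anaesthesia, in a protocol entered for the IRI, AKI and sham samples and not for the MSC groups, so group names alone tell which kidneys had cells. Each of the 10 groups had 4 libraries. Whether these were separate animals is not stated, so the spread behind a p-value may be technical only. The control columns of the sham table carry no sham name but the short names that the labels give to Control. They held other counts than Control (Spearman correlation 0.920 to 0.933 over genes for every pairing of the columns), and they were read as sham control from the table they stand in, without telling which column is which sample.

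Library totals ran from 4642943 counts (a 72 h library) to 37097091 (a sham control library), with Control at 14950303 to 16352005. Gene names were repeated over many lines, and which columns varied together over these lines showed that Control and 6 h libraries were joined as one block of columns and the 24, 48 and 72 h libraries as another, and that AKI was joined separately from Control, BM-MSC and UC-MSC. In comparisons across these blocks, the effect of the condition and of the block cannot be told apart. The share of mitochondrial ribosomal RNA in the counts moved with the blocks, from 0.180% to 0.220% in Control and 0.239% to 0.50% at 6 h to 1.58% to 4.36% at the 3 later times, and from 0.946% to 2.40% in AKI against 0.153% to 0.452% in the MSC groups. Its part in the results was not tested. IRI 6 h library 1, AKI library 1, BM-MSC library 4 and UC-MSC library 4 stood apart from their groups (median Spearman correlation with the others 0.928, 0.875, 0.958 and 0.934). The calls lost without these 4 libraries are named with each comparison. Such medians were low for every library of the 48 h group (0.883 to 0.889) and of the 72 h group (0.873 to 0.879). One gene, Cep85, took 3.19% to 10.9% of the counts in the 48 h libraries. Its share ran from 9.73% to 12.9% in the 72 h libraries, while Control libraries held 0.0107% to 0.0135%. What Cep85 contributed to the fits was not tested. The AKI and IRI 6 h samples carry the same library names in the labels, but their counts were different (Spearman correlation 0.872 to 0.933 between libraries of the same name).

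Each integrin is a pair of one alpha and one beta subunit, and the pair decides the ligand. Itga3 and Itga6 pair with Itgb1 or, for Itga6, with Itgb4 to bind laminin, and the Itga6 and Itgb4 pair anchors epithelial cells to keratin filaments in hemidesmosomes. Itga5, Itga8, Itgav and Itga2b bind the RGD motif of matrix proteins such as fibronectin, and Itgav with Itgb6 or Itgb8 activates latent TGF-beta. Laminins are trimers of one alpha, one beta and one gamma chain. In the kidney, Lama5, Lamb2 and Lamc1 form the laminin of the mature glomerular basement membrane, Lama1 belongs to tubular basement membranes, and Lama3 and Lamb3 belong to the epithelial laminin of wound edges. In bulk tissue, fewer cells of a type and less RNA per cell cannot be told apart.

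Promoters of 4 members are shown as examples of opposite directions of change, and these members were chosen after their values were seen. RefSeq's 250 bases before the start site (build GRCm38.p6, all 4 on the minus strand) are printed 5′ to 3′. Capitals mark the SP1 box, GGGCGG, or its reverse complement CCGCCC. The first 3 belong to genes that were higher at every time after IRI, and the last to the member that fell furthest at 48 and 72 h. They lie at chr2:180225860-180226109 (Lama5), chr15:103366792-103367041 (Itga5), chr11:95076715-95076964 (the promoter of Itga3 with more boxes) and chr12:119238277-119238526 (Itgb8).
Lama5: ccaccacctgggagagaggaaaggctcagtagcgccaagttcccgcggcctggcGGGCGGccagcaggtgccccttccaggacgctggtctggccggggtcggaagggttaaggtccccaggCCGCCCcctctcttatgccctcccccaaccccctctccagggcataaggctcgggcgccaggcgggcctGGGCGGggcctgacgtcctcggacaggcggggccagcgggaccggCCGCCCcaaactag
Itga5: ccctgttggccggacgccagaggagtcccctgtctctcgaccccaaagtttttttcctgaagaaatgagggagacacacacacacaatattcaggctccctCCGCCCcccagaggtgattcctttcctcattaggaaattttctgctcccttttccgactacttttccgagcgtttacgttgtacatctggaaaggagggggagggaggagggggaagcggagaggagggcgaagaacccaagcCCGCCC
Itga3: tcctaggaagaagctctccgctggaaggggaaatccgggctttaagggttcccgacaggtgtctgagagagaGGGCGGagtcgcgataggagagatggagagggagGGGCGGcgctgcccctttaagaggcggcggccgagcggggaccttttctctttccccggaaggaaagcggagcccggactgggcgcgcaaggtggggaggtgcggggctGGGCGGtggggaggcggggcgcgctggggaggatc
Itgb8: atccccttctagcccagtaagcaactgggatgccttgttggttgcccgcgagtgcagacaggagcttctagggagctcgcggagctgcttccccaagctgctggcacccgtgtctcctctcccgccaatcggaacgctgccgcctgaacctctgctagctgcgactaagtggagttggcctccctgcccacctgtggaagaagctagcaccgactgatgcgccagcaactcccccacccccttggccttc
Lama5 held 4 SP1 boxes, Itga3 3, Itga5 2 and Itgb8 0. These 4 do not stand for all members. Among members lower from 24 h on, Itgb5 held 3 boxes and Itga1, Itga8 and Itgb6 held 0. Itga10, Itga2b and Lamb2, higher from 24 h on, held 0. Promoters were at hand for 22 members (25 promoters), and 8 promoters of 7 members held the box, compared with 32.7% of all 32851 mouse promoters of that length. The AP-1 motif TGANTCA was found in 1 of the 25 (Itgax), against 6.75% of all promoters. The TEAD motif GGAATG was found in 2 (Itga10 and one promoter of Lamb3), against 12.6%. Motifs were searched on both strands, and a match is a description of these letters, not a site of binding.

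In Control kidney, the most abundant members per kilobase of exon (CPM per kb, where CPM is the count relative to the library size after TMM scaling) were beta subunits. Itgb5, a partner of Itgav, stood at 52.5 CPM per kb. Itgb8 (20.2), Itgb6 (19.3), Lamb1 (19.2), Itgav (16.3), Itga6 (13.0), Itga3 (12.2) and Lamb2 (10.7) followed, all in mean CPM per kb of the 4 libraries. The CPM of Itgb8, Itgb6 and Lamb1 lay at 223 ± 9.01, 137 ± 8.09 and 190 ± 7.28 (mean ± SD, n = 4), so the gaps between these 3 levels per kb were about as small as the spread between libraries. Lama5 stood at 7.14 CPM per kb and Itgb4 at 1.27. At 72 h that order had changed, with Lama5 at 101 CPM per kb, Itga3 at 66.3, Lamb2 at 54.7, Itgb5 at 24.1, Itgb4 at 19.5 and Itgb8 at 1.23.

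At 6 h more of these genes were above Control than below it. Of 34 members tested, 12 were called (35.3%, 10 higher and 2 lower), where 18.8% of all 16654 genes were called (10.3% higher, 8.51% lower). Called means an adjusted p under 0.05 by the quasi-likelihood test of edgeR, with Benjamini-Hochberg adjustment over all genes tested, which gave every adjusted p below. The median log2 fold change was 0.65 over the members and −0.071 over all genes. Itga3, Itga6, Itga5, Itga9, Itgb3, Itgb4, Lama5 and Lamb3 rose, as did the leukocyte genes Itgam and Itgb2, and Itgb8 and Lamc3 fell. Itgam is counted among the 12, although Control libraries alone did not carry it past the filter on low counts. It entered the fit through the injured groups, so its value is no test of a difference.

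Itga5, the alpha subunit of the main fibronectin receptor, held 9.42, 10.8, 9.34 and 12.5 CPM in the Control libraries. The 6 h libraries held 168, 40.8, 33.9 and 28.9 CPM. Every 6 h library lay above every Control library, and library 1 lay far above the others. The log2 fold change was 2.69 ± 0.49 (± SE, adjusted p = 0.00036), and 1.72 ± 0.36 without that library. Itga3 showed the same order, with Control libraries at 67.8, 65.3, 76.0 and 69.9 CPM and 6 h libraries at 379, 179, 146 and 148 CPM (1.61 ± 0.23, adjusted p = 1.9e-05, and 1.18 without library 1). Lamb3, a beta chain of the wound-edge laminin, rose by 1.41 ± 0.33, while the alpha chain Lama3 had a Control level of 26.7 ± 4.79 CPM and a 6 h level of 27.9 ± 1.58 CPM (0.063 ± 0.27, adjusted p = 0.93). Lamb1 and Lamb2, the beta chains of other laminins, did not pass the test either (0.074 ± 0.13 and −0.072 ± 0.15).

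Itgb3, which pairs with Itgav or Itga2b, rose from 2.99, 3.10, 2.84 and 3.49 CPM to 40.7, 9.45, 8.84 and 7.20 CPM (2.41 ± 0.51, adjusted p = 0.0015, and 1.45 without library 1). All 6 h values exceeded all Control values. Itgb8 held 227, 223, 210 and 231 CPM in Control and 53.4, 120, 125 and 156 CPM at 6 h, again without overlap, and fell by 0.97 on the log2 scale (SE 0.28, adjusted p = 0.016). Without IRI 6 h library 1, Itgb8 (−0.74, adjusted p = 0.056) and Itga9 (0.74, adjusted p = 0.17) were no longer called, and 10 members were. The Itga9 call was also lost without any 1 Control library (adjusted p = 0.057 to 0.074). With only Control and 6 h in the fit, 22 members were called, 17 higher and 5 lower. Markers of other cells moved at 6 h too. All 8 injured tubule markers tested were higher (summed level 687 to 796 CPM in Control and 4003 to 6667 at 6 h), as were 4 of 8 fibroblast and pericyte markers (520 to 588 and 1467 to 2029 CPM). Of 7 proximal tubule markers 3 were lower (14614 to 17906 and 2801 to 7442 CPM), and the part of these cells in the 6 h results was not tested.

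**Figure D1:**
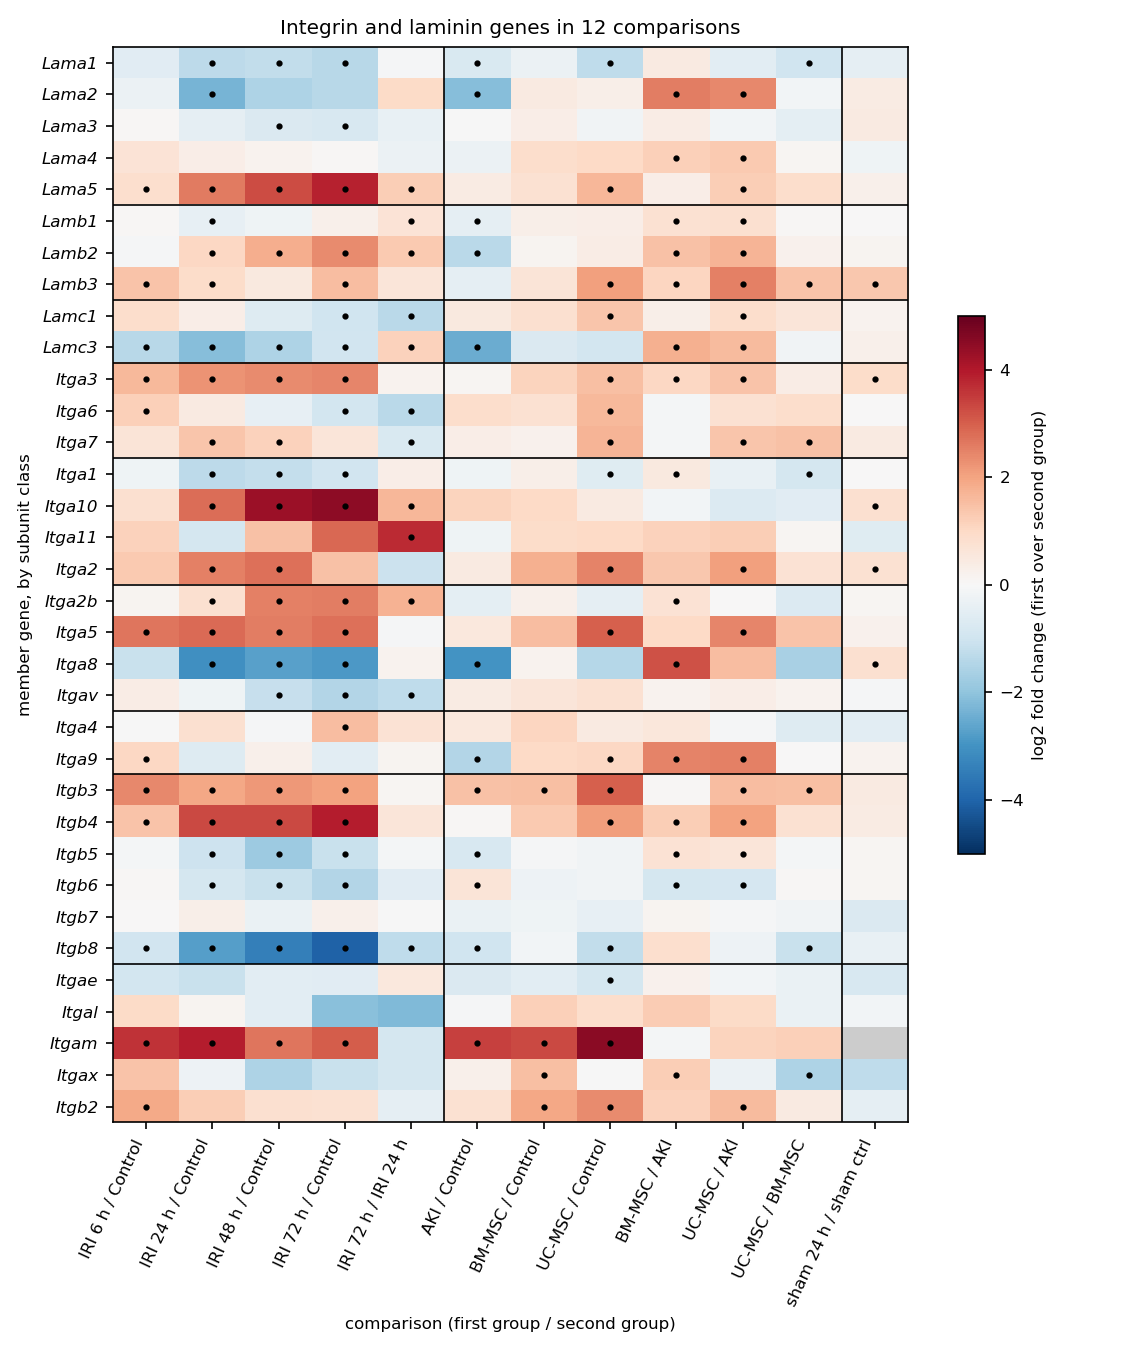
Log2 fold changes of the members (rows, grouped by subunit class) in 12 comparisons (columns, first group over second), red for higher and blue for lower, grey where not tested, with a dot where called. Lama5, Itgb4, Itga3 and Itga5 were called higher at all 4 times after IRI, and Itgb8 and Lamc3 lower at all 4.

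From 24 to 72 h members were called in both directions, and 12 to 14 of 34 were not called at each time. At 24 h, 21 of 34 were called (61.8%, 12 higher and 9 lower, against 41.9% of all genes, 21.8% higher and 20.2% lower). At 48 h there were 20 (58.8%, 11 and 9, against 53.7%, 26.9% and 26.8%) and at 72 h 22 (64.7%, 11 and 11, against 56.3%, 26.7% and 29.6%). The shares at 48 and 72 h are thus near those of all genes. Member medians were 0.30, −0.14 and 0.15 on the log2 scale at 24, 48 and 72 h, and those of all genes 0.052, 0.0069 and −0.045. Itga3, Itga5, Itgb3, Itgb4 and Lama5, with the leukocyte gene Itgam, were called higher at all 4 times, a pattern of 5.89% of genes. Itgb8 and Lamc3 were called lower at all 4, a pattern of 6.01%. The Lamc3 call at 72 h was lost with DESeq2's size factors (adjusted p = 0.064) and without Control library 1, 2 or 3 or 72 h library 2 (adjusted p = 0.050 to 0.079). Another 3 members, Itga10, Itga2b and Lamb2, were called higher from 24 h on, and 5, namely Itga1, Itga8, Itgb5, Itgb6 and Lama1, lower from 24 h on. Of all genes 15.8% were called higher and 15.9% lower at 24, 48 and 72 h, where 9 and 7 members were. Other calls lost without 1 of several libraries were Lamb3 at 24 h (adjusted p = 0.054 to 0.075), Lama3 at 48 h (0.052 to 0.086) and Itga4 at 72 h (0.059 to 0.16).

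Lama5, the alpha chain of the laminins of the adult nephron and vessels, climbed at each time. Its libraries held 77.7, 82.5, 82.4 and 82.5 CPM in Control, 211, 133, 111 and 121 at 6 h, 523, 598, 418 and 440 at 24 h, 909, 695, 843 and 661 at 48 h, and 1310, 1000, 1240 and 1060 at 72 h. No 2 consecutive times overlapped. The log2 fold changes from Control were 0.83 ± 0.17, 2.60 ± 0.18, 3.26 ± 0.19 and 3.83 ± 0.19 (adjusted p = 0.0013, 2.1e-10, 3.8e-12 and 3.8e-13), or 14.2-fold at 72 h. Lamb2, a beta chain of the same trimer, showed 63.4, 69.1, 63.6 and 63.4 CPM in Control, and 134 ± 14.6, 230 ± 8.28 and 333 ± 11.9 CPM at 24, 48 and 72 h (1.04, 1.82 and 2.36, each ± 0.15). The gamma chain Lamc1 did not follow them, with 64.4 ± 4.15 CPM in Control, 81.2 ± 8.63 at 24 h and 32.3 ± 17.6 at 72 h (−0.99 ± 0.36, adjusted p = 0.023 at 72 h). That call was lost without 72 h library 2 (adjusted p = 0.051) and with only the groups compared in the fit (adjusted p = 0.068).

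Itgb4, the hemidesmosome beta subunit, was at 9.68, 6.75, 8.85 and 10.4 CPM in Control and at 43.1, 18.7, 17.5 and 17.1 CPM at 6 h. It reached 79.3, 126, 72.0 and 78.2 CPM at 24 h, 89.0, 65.2, 102 and 92.7 at 48 h, and 182, 142, 112 and 109 at 72 h. All injured libraries lay above all Control libraries, and the 24 and 48 h ranges overlapped (1.43 ± 0.28, 3.31 ± 0.29, 3.29 ± 0.29 and 3.93 ± 0.30). Its alpha partner Itga6 took another course, from 118 ± 10.4 CPM in Control to 267 ± 33.7 at 6 h and 62.7 ± 25.1 at 72 h (1.18 ± 0.24, adjusted p = 0.00096 at 6 h, and −0.91 ± 0.24, adjusted p = 0.0030 at 72 h). Itga3 held 293 to 397 CPM at 24 h, 283 to 425 at 48 h and 317 to 438 at 72 h (2.26, 2.36 and 2.44, each ± 0.23). Itga5 held 38.6 to 116 CPM at 24 h, 30.6 to 83.8 at 48 h and 38.5 to 88.6 at 72 h, ranges that overlap one another and lie above Control. Over the same times proximal tubule markers fell (7 of 7 tested lower at 24, 48 and 72 h, summed level 14614 to 17906 CPM in Control and 865 to 1050 at 72 h), and summed podocyte markers stood at 298 to 344 CPM in Control and 123 to 196 at 72 h. Summed endothelial markers stood at 323 to 348 CPM in Control and 435 to 559 at 72 h (1 of 6 higher, 1 lower). Those of fibroblasts and pericytes stood at 520 to 588 and 1112 to 1277 CPM (3 of 8 higher, 1 lower), and those of injured tubule at 687 to 796 and 1952 to 2613 CPM (7 of 8 higher). Their part in these results was not tested.

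Itgb8, the TGF-beta activating beta subunit, was lower at each later time, and at 48 and 72 h it was the member furthest below Control. It was at 41.7, 26.0, 32.9 and 32.4 CPM at 24 h, 13.4, 32.4, 13.2 and 25.9 at 48 h, and 14.0, 19.3, 8.61 and 12.5 at 72 h, against 210 to 231 in Control. The log2 scale values were −2.75 ± 0.30, −3.40 ± 0.31 and −4.04 ± 0.33 (adjusted p = 1.2e-07, 5.2e-09 and 6.1e-10), a 16.4-fold lower level at 72 h. Itgb6, the other TGF-beta activating subunit, kept its Control level at 6 h within the spread (137 ± 8.09 and 143 ± 8.94 CPM) and was at 74.2 ± 13.8, 63.4 ± 26.4 and 49.7 ± 25.6 CPM at the later times (−0.89 ± 0.29, −1.12 ± 0.29 and −1.47 ± 0.29). Their alpha partner Itgav was called lower at 48 h (−1.14 ± 0.19) and 72 h (−1.47 ± 0.19) and not at 24 h (−0.21 ± 0.19, adjusted p = 0.39). Itga8, a receptor of mesangial and stromal cells, held 24.4, 19.9, 20.3 and 24.0 CPM in Control and 2.52, 2.05, 4.03 and 1.95 CPM at 24 h (−3.05 ± 0.89, adjusted p = 0.0079). At 72 h its libraries held 11.8, 0, 0.200 and 0 CPM, so library 1 carried nearly all of its counts there (−2.88 ± 0.91, adjusted p = 0.0096, and 0.069 with only the groups compared in the fit). Lamc3 fell from 19.4, 21.2, 23.7 and 17.9 CPM in Control to 3.86, 2.30, 5.94 and 6.46 at 24 h (−2.13 ± 0.39, adjusted p = 0.00011) and stood at 10.5 ± 2.60 CPM at 72 h (−0.97 ± 0.38, adjusted p = 0.033).

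Itga10, an alpha subunit of collagen receptors of low abundance here, held 0.637, 0.633, 0.553 and 0.628 CPM in Control and 6.13, 16.4, 11.4 and 21.2 CPM at 72 h (4.46 ± 0.49, adjusted p = 7.5e-08). Control libraries alone did not carry Itga10 past the filter on low counts, so its p-value against Control is no test of a difference. Every 72 h library exceeded every Control library by far. Sham control kidneys, also read as unoperated, held more Itga10 than Control. Scaled together, the levels were 6.33 ± 2.11 and 0.657 ± 0.0433 CPM (log2 difference 3.25 ± 0.43). With sham control as reference, Itga10 was not called at 24 h (−0.46 ± 0.38). It was called higher at 48 h (1.00 ± 0.38) and 72 h (1.18 ± 0.38). The size of its rise thus depended on the reference. The most abundant collagen-binding subunit, Itga1, went the other way, from 123 ± 6.76 to 50.3 ± 5.86 CPM at 24 h (−1.30 ± 0.19, adjusted p = 9.1e-06). Itga2b, the platelet fibrinogen receptor subunit, held 11.0 ± 1.48 CPM in Control, 63.4 ± 11.9 at 48 h and 65.1 ± 11.2 at 72 h (2.53 ± 0.21 and 2.57 ± 0.21). The summed level of 6 platelet markers was 2.63 to 4.05 CPM in Control and 43.3 to 107 CPM at 72 h, with Gp1bb at 0 throughout and Gp6 at 0 at 72 h, and their part in the Itga2b result was not tested.

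**Figure D2:**
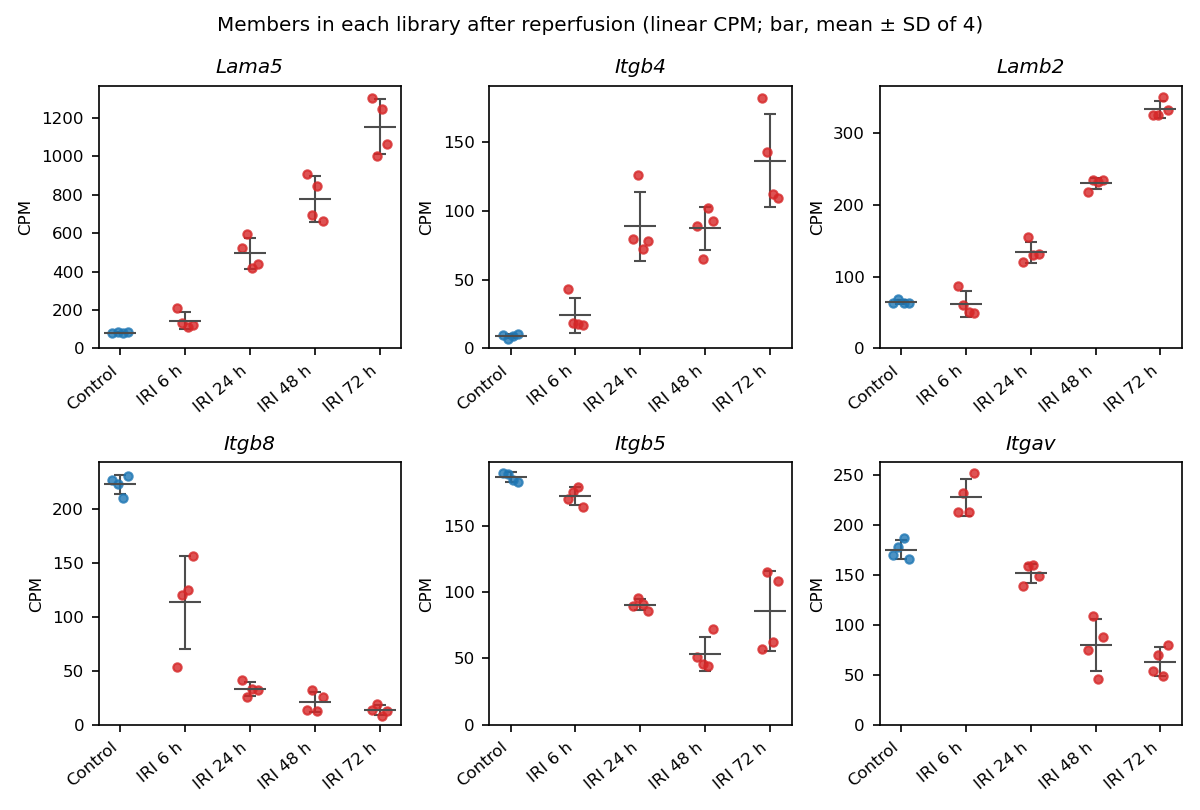
CPM of 6 members (linear axis from 0) in Control and at 6, 24, 48 and 72 h after reperfusion; points are the 4 libraries of a group and bars the mean ± SD. Lama5 climbs from 81.3 ± 2.40 to 1150 ± 143 CPM while Itgb8 falls from 223 ± 9.01 to 13.6 ± 4.42 CPM.

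Between 24 and 72 h, within 1 joined block, 12 members differed (35.3%, 7 higher and 5 lower, against 30.7% of all genes, 12.4% and 18.3%). Lama5 (1.22 ± 0.17, adjusted p = 1.4e-05), Lamb2 (1.31 ± 0.15) and Lamb1 (0.68 ± 0.13) were higher at 72 h than at 24 h, as were Itga2b, Itga10, Itga11 and Lamc3. Lamb1 (−0.43 ± 0.13) and Lamc3 had been below Control at 24 h. Itga6 (−1.35 ± 0.25), Itgav (−1.26 ± 0.19), Itgb8 (−1.29 ± 0.31), Lamc1 (−1.33 ± 0.36) and Itga7 (−0.78 ± 0.28) were lower at 72 h than at 24 h. Of these, Itgb8 had been below Control at 24 h and Itga7 above it (1.38 ± 0.28). The Itga7 call was lost with DESeq2 (adjusted p = 0.078), with its size factors (adjusted p = 0.084) and without any 1 of 7 libraries, all but 72 h library 3 (adjusted p = 0.054 to 0.092). The Lamc3 call was lost without 24 h library 1 or 2 or 72 h library 1 (adjusted p = 0.064 to 0.099). Itga3 did not pass the test (0.18 ± 0.22), nor did Itgb5 (−0.080 ± 0.19). Itga11 held 0, 0.384, 0.495 and 0 CPM at 24 h and 0, 1.23, 5.20 and 6.59 CPM at 72 h. These ranges overlap, and its call (3.74 ± 1.41, adjusted p = 0.048) was lost without any one of 6 of these 8 libraries, all but 72 h libraries 1 and 2 (adjusted p = 0.067 to 0.13). The 24 h libraries alone did not carry Itga11 past the filter on low counts. Its value is therefore no test of a difference, although Itga11 is counted among the 12.

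The control columns of the sham table, read as unoperated kidneys, gave a second reference, and for several members the reference decided the result. The 2 sets of unoperated libraries differed from each other in 18 of 34 members, 9 higher and 9 lower in sham control, against 30.4% of all genes. Marker levels differed as well, each scaled in its own table. Summed thick ascending limb markers stood at 691 to 948 CPM in sham control and 3737 to 4034 in Control. Proximal tubule markers stood at 33107 to 39256 CPM in sham control (8 genes) and 14614 to 17906 in Control (7 of these genes). The proximal tubule sums thus do not cover the same genes. Those of fibroblasts and pericytes stood at 228 to 297 and 520 to 588 CPM, and their part in the differences between references was not tested. Scaled together, Lama5 stood at 488 ± 27.7 CPM in sham control and at 87.1 ± 2.06 CPM in Control (2.49 ± 0.16, adjusted p = 2.3e-13). Sham control was thus close to the 24 h level of 521 ± 87.2 CPM on the same scale. Against sham control, Lama5 was not called at 24 h (0.092 ± 0.15, adjusted p = 0.70) and was higher at 48 h (0.72 ± 0.15) and 72 h (1.30 ± 0.15). Lamb2 took a like course, with 0.029 ± 0.13 at 24 h, 0.79 ± 0.13 at 48 h and 1.33 ± 0.14 at 72 h. Itgb8 was lower in sham control than in Control (90.5 ± 18.5 and 239 ± 9.79 CPM, −1.40 ± 0.26) and still fell from that level (−1.37 ± 0.26, −2.05 ± 0.27 and −2.68 ± 0.28 at 24, 48 and 72 h).

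Of the members called higher against Control at 24, 48 and 72 h, 6 of 12, 10 of 11 and 9 of 11 were also called higher against sham control. For those called lower it was 5 of 9, 4 of 9 and 7 of 11. The share of all genes called alike against both references was not counted, so these counts cannot be set against other genes. In all, 17 members (31.8% of genes), 19 (40.6%) and 19 (46.1%) were called against sham control at these times. Itga3 (1.61, 1.69 and 1.78), Itga5 (2.48, 2.20 and 2.41), Itgb3 (2.54, 2.74 and 2.61), Itgb4 (1.87, 1.82 and 2.47) and Itgam (4.32, 3.05 and 3.41) were higher against either reference at all 3 times, and Itgb5 and Lama1, with Itgb8, lower. For Itgam neither reference alone passed the filter on low counts, so its values are no test of a difference. At 24 h, Itga2b and Itgb6 were called in opposite directions by the references. Itgav, not called at 24 h against Control, was higher against sham control (0.76, adjusted p = 0.00066). Itgb6 was at 147 ± 9.20 CPM in Control, 49.1 ± 5.21 in sham control and 78.1 ± 14.7 at 24 h on the joint scale, so that it was lower against Control and higher against sham control (0.67 ± 0.26, adjusted p = 0.045).

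**Figure D3:**
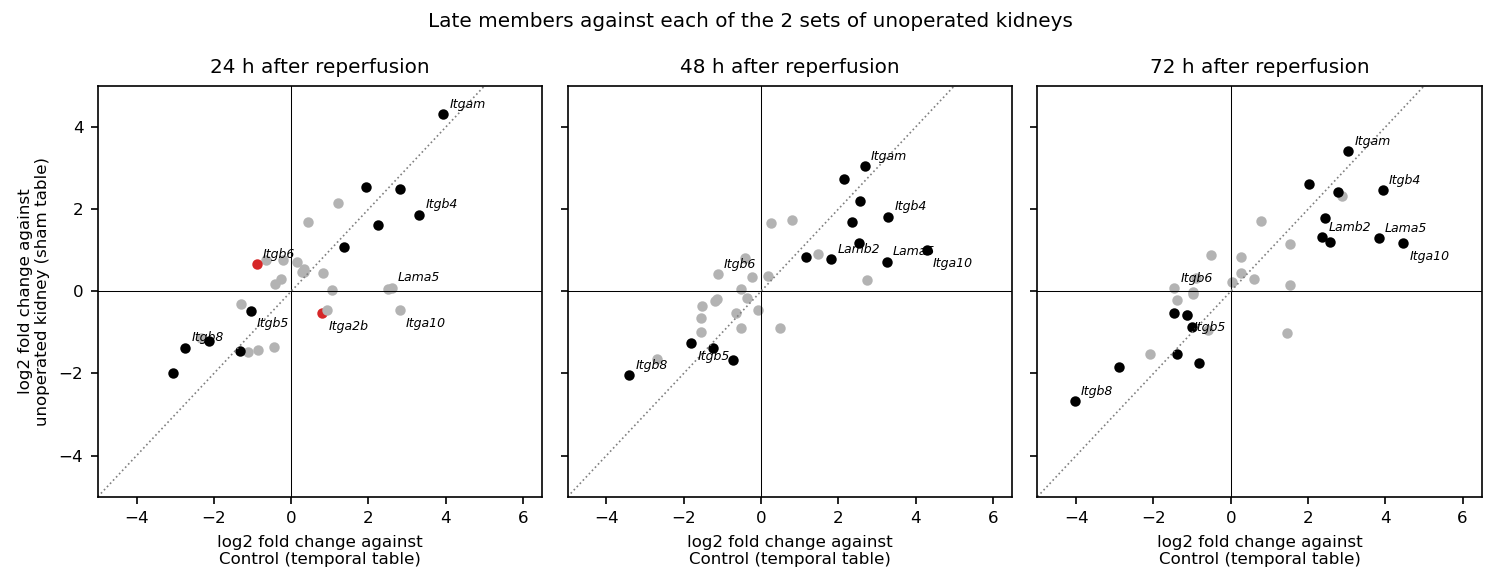
Log2 fold changes of the members at 24, 48 and 72 h against Control (horizontal) and against sham control (vertical), 1 point per member; black points were called in the same direction with both references, red points in opposite directions, grey points otherwise, and the dotted line marks equal values. Lama5 lies at 2.60 and 0.092 at 24 h.

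At sham 24 h, after surgery without ischaemia, 5 of 33 members tested were called, all higher (15.2%, against 20.8% of all genes, 7.7% higher and 13.1% lower). The member median was 0.093 and that of all genes 0.036. Lamb3 held 21.2, 18.5, 25.3 and 19.1 CPM in sham control and 54.5, 60.7, 59.0 and 38.1 CPM at sham 24 h, with no overlap (1.34 ± 0.15, adjusted p = 1.2e-05). Itga3 went from 85.7, 62.0, 83.3 and 65.6 CPM to 159, 155, 131 and 111 CPM (0.91 ± 0.14, adjusted p = 0.00015), again above every sham control library. Itga2 also rose (0.78 ± 0.20), as did Itga8 and Itga10, whose calls were each lost without 1 of several libraries (adjusted p = 0.056 to 0.061 for Itga8 and 0.060 to 0.13 for Itga10). Without sham control library 2, or without sham 24 h library 2, 3 members were called (Itga2, Itga3 and Lamb3). Proximal tubule markers fell at the same time (8 of 8 lower, summed level 33107 to 39256 CPM in sham control and 15934 to 20516 at sham 24 h), and their part in these results was not tested. Lama5 (0.26 ± 0.09, adjusted p = 0.055) and Itgb8 (−0.37 ± 0.13, adjusted p = 0.056) did not pass the test.

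The change from Control to IRI 24 h differed from the change from sham control to sham 24 h in 24 of 34 members (70.6%, 14 upward and 10 downward, against 44.9% of all genes, 24.8% and 20.1%). The difference was 2.99 ± 0.26 for Itgb4, 2.70 ± 0.39 for Itga5, 2.43 ± 0.15 for Lama5 and 1.45 ± 0.18 for Itga3. On the other side it was −3.74 ± 0.34 for Itga8, −2.60 ± 0.52 for Lama2, −2.29 ± 0.42 for Lamc3 and −2.28 ± 0.19 for Itgb8. Lamb3 did not differ by this test (−0.32 ± 0.20, adjusted p = 0.22), and neither did Itgav (−0.047 ± 0.13) or Lamc1 (0.25 ± 0.16). Itgam is counted among the 24, although it was under the filter on low counts in the sham table and entered this fit through the IRI 24 h libraries, so its value is no test of a difference. The calls of Itga4, Itga6, Itgb2, Itgb3, Lama1, Lama3 and Lamb1 were each lost without 1 library or any 1 of several (adjusted p = 0.051 to 0.11). The unoperated sets themselves differed for many members, and the part of that in these differences was not tested. Scaled together, Lama5 stood at 521 ± 87.2 CPM at IRI 24 h and 576 ± 29.1 CPM at sham 24 h. Control held 87.1 ± 2.06 CPM of it and sham control 488 ± 27.7 CPM. Its difference of changes thus does not mean a higher level after IRI than after sham surgery. Mean levels of Itgb4 (93.6 and 33.6 CPM), Itga5 (78.2 and 16.2) and Itga3 (351 and 212) were higher at IRI 24 h than at sham 24 h.

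In the therapy table, AKI kidneys held less Lama1, Lama2, Lamb1, Lamb2 and Lamc3 mRNA than Control. Of 34 members, 12 were called (35.3%, 3 higher and 9 lower, against 35.0% of all genes, 20% higher and 15.1% lower), and among the 10 laminins 5 were lower and 0 higher. AKI stands in another joined block than Control. At IRI 6 h, also labelled 6 h after reperfusion, Lamc3 was the only laminin called lower against the same Control libraries. Lama5 and Lamb3 were called higher there. The cause of this disagreement was not tested. Lama2, the chain of stromal and muscle laminin, held 19.5, 20.5, 24.9 and 17.7 CPM in Control and 14.1, 0.961, 1.41 and 2.60 CPM in AKI. All AKI libraries lay below Control, and library 1 lay near it (−2.12 ± 0.57, adjusted p = 0.0091, and −3.65 ± 0.30 without library 1). Lamb2 went from 59.1, 63.8, 58.0 and 59.3 CPM to 42.3, 23.4, 13.4 and 15.9 CPM (−1.34 ± 0.27, adjusted p = 0.0013, and −1.80 without library 1). Lamc3 (−2.47 ± 0.38), Lama1 (−0.75 ± 0.24) and Lamb1 (−0.47 ± 0.14) were also lower. The Lama1 call was lost without AKI library 2, 3 or 4 or Control library 4 (adjusted p = 0.068 to 0.079). With only AKI and Control in the fit, Lama1 (adjusted p = 0.052) and Lama2 (adjusted p = 0.054) were not called.

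Among the integrins, Itga8 (−2.98 ± 0.68), Itga9 (−1.48 ± 0.38), Itgb8 (adjusted p = 0.030) and Itgb5 (−0.78 ± 0.12) fell in AKI, and Itgb3 (1.45 ± 0.37), Itgb6 (0.65 ± 0.23) and the leukocyte gene Itgam (3.40 ± 0.54) rose. Itga9 was called in the opposite direction at IRI 6 h (1.05 ± 0.33), a call lost without IRI 6 h library 1 or any 1 Control library. Without AKI library 1 the 12 calls were the same, with Itga8 at −4.04 and Itga9 at −2.29. Leaving out AKI library 2, 3 or 4 lost Itgb6, Itgb8 and Lama1. The Itgb6 call was also lost without any 1 Control library (adjusted p = 0.061 to 0.096 over all 7 libraries), and that of Itgb8 without Control library 1, 2 or 4 (adjusted p = 0.057 to 0.090 over 6). With no filter or a replicate block Itgb6 was not called (adjusted p = 0.058 to 0.065), nor was Itgb8 with only these groups in the fit (0.054). Itga6, at 408 CPM in AKI library 1 and 116 to 138 CPM in the others, did not pass (0.86 ± 0.34, adjusted p = 0.057). Itgav held 434 CPM in that library and 132 to 165 CPM in the others (0.42 ± 0.31), and turned to −0.19 without it. Endothelial markers were lower in AKI as well (4 of 6 tested, summed level 68.2 to 247 CPM against 295 to 321 in Control), and so were 3 of 8 fibroblast and pericyte markers (259 to 437 against 474 to 550 CPM). Their part in the laminin results was not tested.

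The MSC groups held more Lama2, Lamb1, Lamb2 and Lamc3 mRNA than AKI, and more of several integrin subunits. Against AKI, 15 members were called with BM-MSC (44.1%, 14 higher and 1 lower, against 33.4% of all genes, 16.3% and 17.1%). With UC-MSC 18 were called (52.9%, 17 higher and 1 lower, against 40.5%, 20.3% and 20.2%). Member medians were 0.73 and 1.03, those of all genes 0.0017 and −0.017. Itga3, Itga9, Itgb4, Itgb5, Lama2, Lama4, Lamb1, Lamb2, Lamb3 and Lamc3 were called higher in both, a pattern of 10.7% of genes, and Itgb6 was called lower in both, a pattern of 10.1%. These comparisons share the AKI libraries, which stand in another joined block. Without AKI library 1, 23 members were called with BM-MSC (22 higher and 1 lower) and 22 with UC-MSC (20 and 2). Without BM-MSC library 4, 11 were called with BM-MSC, and without UC-MSC library 4, 21 with UC-MSC. Of the 10 members called higher in both, Itga3, Itgb4, Lama4 and Lamb3 were no longer called with BM-MSC without that BM-MSC library (adjusted p = 0.17, 0.26, 0.12 and 0.062). Itga3, Itgb4 and Lama4 were also lost without 1 of 2 or 3 AKI libraries. Outside those 10, the BM-MSC calls of Itga1, Itga2b and Itgax and the UC-MSC calls of Itga2 and Lamc1 were each lost without 1 or any 1 of several libraries (adjusted p = 0.051 to 0.16). With only UC-MSC and AKI in the fit, Lama4 (adjusted p = 0.058), Itgb6 (0.062), Itga2 (0.071) and Lamc1 (0.082) were not called with UC-MSC. With only BM-MSC and AKI in the fit, Itga3 (adjusted p = 0.098), Lamb3 (0.073) and Itgb4 were not called with BM-MSC. Itgb4 was also lost there with a replicate block (adjusted p = 0.055 to 0.060 over these alternatives).

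Lama2 held 31.9, 30.9, 17.2 and 31.5 CPM with BM-MSC and 29.3, 23.7, 24.1 and 24.1 CPM with UC-MSC, all above the 14.1 CPM of the highest AKI library (2.56 ± 0.58 and 2.42 ± 0.57, adjusted p = 0.0033 and 0.0036). Itga9, a receptor for tenascin and osteopontin, held 16.4, 4.61, 2.56 and 5.38 CPM in AKI, 37.4, 37.2, 39.8 and 47.5 with BM-MSC, and 50.6, 42.1, 40.3 and 33.1 with UC-MSC. Neither MSC group overlapped AKI (2.49 ± 0.39 and 2.52 ± 0.39, adjusted p = 0.00024 and 0.00015). Itga8 was higher with BM-MSC (23.3, 26.5, 19.0 and 24.6 CPM against 6.67, 1.60, 2.24 and 0 in AKI, 3.16 ± 0.68, adjusted p = 0.0025), and with UC-MSC it did not pass (13.5, 6.62, 7.03 and 2.98 CPM, 1.55 ± 0.66, adjusted p = 0.073). Lamc3 held 13.6, 14.3, 8.75 and 9.84 CPM with BM-MSC, above the AKI libraries at 1.92 to 6.04 (1.76 ± 0.38, adjusted p = 0.0023). Itgb6 went the other way, with 147, 231, 198 and 223 CPM in AKI and 94.2, 94.3, 132 and 109 CPM with BM-MSC (−0.89 ± 0.23, adjusted p = 0.0072). Itgav and Itga6 did not pass against AKI with BM-MSC (0.16 ± 0.31 and −0.11 ± 0.33) or UC-MSC (0.32 ± 0.31 and 0.75 ± 0.34).

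These differences depended on which injured group was used. AKI and IRI 6 h are both labelled as 6 h after reperfusion, and with IRI 6 h in place of AKI, 0 of 34 members were called with BM-MSC by edgeR (3 at an unadjusted p under 0.05), where 0.0% of 16822 genes were called. With UC-MSC, 2 were called (6 at an unadjusted p under 0.05, against 11.5% of genes). Itga7 was higher (0.97 ± 0.27, adjusted p = 0.027) and Lama1 lower (−0.80 ± 0.24, adjusted p = 0.041). Itga9 stood at −0.15 ± 0.36 with BM-MSC and −0.11 ± 0.36 with UC-MSC on that comparison. Markers of other cells moved with the MSC groups against AKI too, with 5 (BM-MSC) and 6 (UC-MSC) of 6 endothelial markers higher. Of 8 fibroblast and pericyte markers, 6 were higher and 1 lower with BM-MSC, and 6 higher with UC-MSC. Their summed levels were 275 to 478 CPM (BM-MSC) and 363 to 501 CPM (UC-MSC) for endothelium, and 1182 to 2171 and 627 to 1734 CPM for fibroblasts and pericytes. Their part in the results was not tested.

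**Figure D4:**
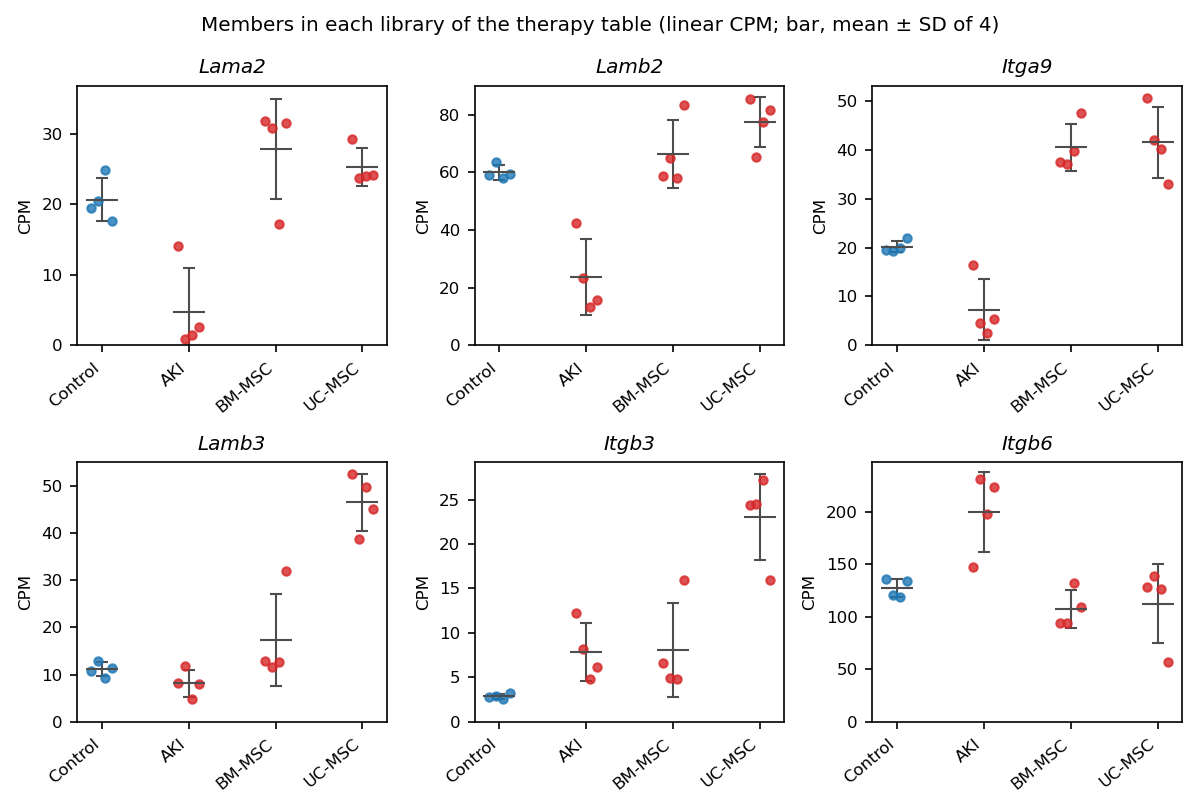
CPM of 6 members (linear axis from 0) in Control, AKI, BM-MSC and UC-MSC; points are the 4 libraries of a group and bars the mean ± SD. Lama2 and Itga9 are low in AKI (4.77 ± 6.27 and 7.25 ± 6.24 CPM), and all MSC libraries lie above all AKI libraries.

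Against Control, UC-MSC kidneys differed in 17 members (50%, 13 higher and 4 lower, against 37.1% of all genes, 20.4% and 16.7%) and BM-MSC kidneys in 4, all higher (11.8%, against 8.93%, 6.56% and 2.36%). Medians were 0.60 (UC-MSC) and 0.69 (BM-MSC), and those of all genes 0.085 and 0.043. With UC-MSC, a chain of the epithelial laminin and several laminin receptor subunits rose, namely Lamb3 (2.06 ± 0.31), Itgb4 (2.09 ± 0.47), Itga6 (1.61 ± 0.34) and Itga3 (1.49 ± 0.36), as did Itga5, at 96.2, 73.2, 107 and 28.4 CPM against 8.52 to 11.7 in Control (2.97 ± 0.59, adjusted p = 0.0012). Itgb3 held 24.4, 24.5, 27.2 and 16.0 CPM against 2.59 to 3.26 (SE 0.39 on the log2 scale, adjusted p = 5.3e-05). No UC-MSC library overlapped Control for Itga5 or Itgb3. Lama5, Lamc1, Itga7, Itga2 and Itga9 were also higher, and Itga1, Itgb8, Lama1 and Itgae lower. Without UC-MSC library 4, 20 members were called, 16 of the 17 among them. The Itga2 call (2.49 ± 0.81) was lost without any one of 4 libraries, Control 1, 2 or 3 or UC-MSC 1 (adjusted p = 0.062 to 0.083). Those of Itga9 (1.04, adjusted p = 0.060 to 0.079) and Itgae (−0.87, adjusted p = 0.056 to 0.086) were lost without any 1 Control library and without 3 of the 4 UC-MSC libraries, all but library 4 for Itga9 and all but library 1 for Itgae.

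With BM-MSC the 4 calls were Itgam, Itgb2, Itgax and Itgb3. BM-MSC library 4 held the highest value of each in its group, for Itgb2 40.4 CPM against 11.7 to 14.1 in the others. Without that library, or without any 1 Control library, Itgam alone was called. Its log2 fold change was 2.89 without library 4 and 3.31 ± 0.54 with it, and like its other calls against Control this is no test of a difference. DESeq2 called 7 members in this comparison, and a fit of these groups alone 16.

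The cell sources differed from each other in 7 members (20.6%, 3 higher and 4 lower with UC-MSC, against 20.5% of all genes, 10.0% and 10.4%). Lamb3 held 52.5, 38.8, 49.8 and 45.0 CPM with UC-MSC and 12.8, 11.6, 12.8 and 31.9 CPM with BM-MSC, without overlap (1.43 ± 0.30, adjusted p = 0.0050). Itgb3 (1.51 ± 0.36) and Itga7, a laminin receptor of muscle cells at 31.2, 43.5, 83.0 and 37.2 CPM against 14.8 to 20.6 (1.47 ± 0.25, adjusted p = 0.0017), were higher with UC-MSC. Itgax (−1.54 ± 0.46), Itgb8 (−1.10 ± 0.34), Lama1 (−0.98 ± 0.25) and Itga1 (−0.89 ± 0.16) were lower. The Itgax call was lost without BM-MSC library 4 or any 1 of UC-MSC libraries 2, 3 and 4 (adjusted p = 0.060 to 0.082), and the Itgb8 call without BM-MSC library 1 or 2 or UC-MSC library 3 or 4 (adjusted p = 0.066 to 0.12). Without BM-MSC library 4, 11 members were called, with Lamb3 at 1.87 and Itgb3 at 2.04. Itgav and Itga6 did not pass (0.16 ± 0.31 and 0.86 ± 0.34). Summed thick ascending limb markers stood at 2110 to 3702 CPM with BM-MSC and 247 to 930 CPM with UC-MSC, and their part in these differences was not tested.

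Among the leukocyte integrins, Itgam, the alpha subunit of the myeloid complement receptor, was called higher in every IRI group and in AKI, BM-MSC and UC-MSC. Control libraries alone did not carry Itgam past the filter on low counts, and it entered these fits through the injured groups. Its adjusted p values against Control are therefore no test of a difference. It held 1.08, 0.704, 0.415 and 0.838 CPM in Control, 18.8, 5.42, 8.03 and 6.00 at 6 h (3.63 ± 0.64, adjusted p = 0.00023) and 5.94, 9.97, 15.9 and 15.4 at 24 h (3.94 ± 0.65). These did not overlap, while 1 of the 48 h libraries, at 0.790 CPM, fell within the Control range. UC-MSC libraries held 19.9, 15.8, 24.0 and 5.58 CPM (4.52 ± 0.55, adjusted p = 3.6e-05). Its beta subunit Itgb2, shared by the myeloid and lymphocyte integrins, was called at 6 h (5.14 to 6.35 CPM in Control, 31.5, 19.4, 18.4 and 16.5 at 6 h, 1.91 ± 0.51, adjusted p = 0.0098), with BM-MSC and with UC-MSC (2.36 ± 0.48), and did not pass at 24 h (1.22 ± 0.51, adjusted p = 0.059) or in AKI (0.78 ± 0.47). Itgal was called in none of the 13 comparisons, and neither was Itgb7. Summed leukocyte markers rose from 193 to 205 CPM in Control to 336 to 560 at 6 h and were 150 to 192 at 72 h. In the therapy table they were 180 to 189 CPM in Control, 116 to 166 in AKI, 268 to 718 with BM-MSC and 174 to 755 with UC-MSC. Their part in the Itgam and Itgb2 results was not tested. Itgad stayed under the filter on low counts in all tables, with at most 0.616 CPM in any library, and Itgam did so in the sham table.

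The other genes of the adhesion machinery were counted from lists. Each count is to be read beside the share of all genes given above for its comparison, such as 10.3% higher and 8.51% lower at 6 h. Of 7 genes of hemidesmosomes and epithelial anchorage, 5 rose and 1 fell at 6 h (median 1.31) and 4 rose and 1 fell at 24 h (median 1.80, where 21.8% of all genes rose and 20.2% fell), with the basal keratin Krt14 up by 5.51 ± 0.66 and Krt5 by 4.39 ± 0.51 at 24 h. Of 20 basement membrane partners of laminins, 8 rose and 3 fell at 6 h, led by Sparc (1.87 ± 0.18) and the collagens Col4a1 (1.54 ± 0.21) and Col18a1 (1.54 ± 0.13). At 24 h 5 rose and 8 fell (median −0.40), at 48 h 6 rose and 6 fell (median −0.25), and at 72 h 7 rose and 7 fell (median −0.45), where 26.7% of all genes rose and 29.6% fell. In AKI 1 rose and 14 fell (median −0.90, all genes 0.056, with 15.1% of all genes lower), with the linker nidogen Nid2 at −1.23 ± 0.24, Col4a6 at −1.87 ± 0.47 and Frem1 at −3.73 ± 0.64, while Col4a2 rose (1.49 ± 0.35). Against AKI, 16 were higher and 1 lower with BM-MSC (median 1.20, where 16.3% of all genes were higher) and 14 higher with UC-MSC (median 0.71, 20.3% of all genes), Nid2 by 2.17 ± 0.24 and 2.02 ± 0.24. AKI stands in another joined block. With IRI 6 h in its place, 0.0% of 16822 genes were called with BM-MSC and 11.5% with UC-MSC. At sham 24 h, 12 of these 20 rose and 1 fell (7.7% and 13.1% of all genes), with Col4a1 and Col4a2 at 0.77 each.

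Non-laminin ligands of integrins rose at 6 h in 10 of 19 tested cases with no fall (10.3% and 8.51% of all genes), led by osteopontin, Spp1 (3.42 ± 0.27), the leukocyte ligand Vcam1 (3.25 ± 0.36) and tenascin, Tnc (2.04 ± 0.44). With UC-MSC, 14 of 19 were above Control (20.4% of all genes). At 24, 48 and 72 h, 7, 6 and 6 of the 19 were higher and 1, 1 and 3 lower. Of 30 integrin activators and adaptors, 8 rose and 2 fell at 6 h, with the actin linkers Actn1 (2.09 ± 0.22) and Flna (1.98 ± 0.24) up and the talin gene Tln2 down (−1.48 ± 0.17). At 72 h 5 rose and 11 fell, with vinculin, Vcl, at −2.70 ± 0.51. Against AKI, 22 of 30 were higher with UC-MSC (20.3% of all genes) and 6 with BM-MSC (16.3%), where 1 was lower. The integrin-linked kinase gene Ilk was at −3.34 ± 0.84 in AKI against Control and at 4.07 ± 0.84 with UC-MSC against AKI. Both comparisons share the AKI libraries, which stand in another joined block.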

How the data were processed

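RNA was measured in 40 kidney samples (44 library columns in 3 tables). The deposited tables hold gene counts, made with HTSeq and build GRCm39 per the submitters' processing notes, which also name DESeq2; the aligner and strand setting are not given in the sources used here. Each gene name's counts were taken once per joined block, and the fits of those tables leave 84 names out: 74 with differing Control counts, 6 in 1 table only, 3 sharing counts with a differing name and 1 repeated with different counts. No column of values was left unmapped; the sham table's control columns were given to their group only.

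Counts were scaled by TMM, filtered with filterByExpr and fitted with edgeR 4.0.16 (limma 3.58.1, R 4.3.3) with all groups of a table in one fit, two-sided, at an adjusted p of 0.05. Genes tested numbered 16654 (temporal), 16624 (therapy), 17781 (sham), 18564 (IRI 24 h with sham) and 19591 (both references). The fit was tested on simulated data. Tables were joined for the difference of changes and the second reference only. Alternatives were DESeq2 1.42.0, its size factors, no filter other than 1 count, only the groups compared, a replicate block and each library left out; sham control in place of Control and IRI 6 h in place of AKI were chosen after seeing the data. Tables and figures used Python 3.11.15, pandas 2.3.3, numpy 2.4.6 and matplotlib 3.10.9.

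Of 37 names matching the rule, 1 was left out for differing Control counts and 1 is not reported here. Members, lists and tests were chosen with earlier results of these data known. Values per library were given for up to 6 called members of largest change per comparison with Control, 4 in other comparisons, and 2 not called, where the mean log2 CPM reached 0; up to 4 called partner genes per list could be named. Replicate numbers did not pair the samples: of 16 group pairs in the temporal and therapy tables, 0 had every correlation over 0.1 (range −0.50 to 0.22).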

Additional observations from a re-analysis of the deposited data

Results flagged for a closer look

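In 21 of 111 sets of 4 libraries, 1 library lay far from the other 3. The rule flags about 1 in 20 independent sets of normal spread. These sets share libraries and belong to the named members, so their count cannot be read against that rate. IRI 6 h library 1 held the highest Itga3 (379 CPM), Itga5 (168), Itgb3 (40.7) and Itgb4 (43.1) of its group. AKI library 1 held the highest Itga5 (36.5 CPM), Itga6 (408), Itgav (434) and Lama2 (14.1). BM-MSC library 4 held the highest Itgb2 (40.4 CPM), Itgb3 (15.9) and Lamb3 (31.9), and BM-MSC library 3 the lowest Lama2 (17.2). UC-MSC library 1 stood high for Itgax (5.59 CPM) and Lama2 (29.3), and UC-MSC library 4 apart for Lamb1 (179). The others were Itga8 in 72 h library 1 (11.8 CPM), Itgb4 in 24 h library 2 (126), Itga10 in Control library 3 (0.553), Itgax (3.92) and Lama5 (77.7) in Control library 1, and Lamb2 in Control library 2 (69.1).

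For 24 members the change from Control to IRI 24 h differed from the change from sham control to sham 24 h by the test of the difference. The log2 difference was positive for Itgam (4.45), Itgb4 (2.99), Itga5 (2.70), Lama5 (2.43), Itga10 (2.10), Itga2 (1.82), Itgb2 (1.77), Itgb3 (1.58), Itga3 (1.45), Itga4 (1.43), Itga7 (1.01), Lamb2 (1.00), Itga2b (0.81) and Itga6 (0.49). Itgam was under the filter on low counts in the sham table, so its value is no test of a difference. The difference was negative for Itga8 (−3.74), Lama2 (−2.60), Lamc3 (−2.29), Itgb8 (−2.28), Itga1 (−1.24), Itgb5 (−1.04), Itgb6 (−0.89), Lama3 (−0.82), Lama1 (−0.81) and Lamb1 (−0.37). Its sign does not give the order of IRI 24 h and sham 24 h. Scaled together, mean Itga10 (4.60 and 10.9 CPM), Itga2 (18.6 and 30.1) and Itga2b (20.4 and 30.5) were lower at IRI 24 h. Itgb6 was higher there (78.1 and 51.5 CPM). For Itgb4, Itga5 and Itga3 the order went with the sign. The part of the differing unoperated sets was not tested.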

How the results depend on the processing

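Of the counts of called members under an alternative, 162 stayed within 1.5 times the main count and 16 did not. With only the groups compared in the fit, the count at 6 h rose from 12 to 22, for BM-MSC against Control from 4 to 16, and for UC-MSC against BM-MSC from 7 to 11. DESeq2 called 7 members for BM-MSC against Control and 12 for UC-MSC against BM-MSC. With IRI 6 h in place of AKI, 0 were called for BM-MSC and 2 for UC-MSC. Leaving out 1 library gave 10 to 12 members at 6 h, 20 to 21 at 24 h, 19 to 22 at 48 h, 20 to 25 at 72 h, 9 to 13 for 72 h against 24 h, 9 to 12 for AKI, 1 to 4 for BM-MSC and 14 to 20 for UC-MSC against Control, 10 to 23 for BM-MSC and 16 to 22 for UC-MSC against AKI, 6 to 11 between the cell sources, 3 to 7 for sham 24 h and 20 to 25 for the difference of changes. The value was 1 for BM-MSC against Control without BM-MSC library 4 or any Control library, 23 for BM-MSC against AKI without AKI library 1, 11 between the cell sources without BM-MSC library 4, and 3 for sham 24 h without sham control library 2 or sham 24 h library 2. A replicate block gave 12, 21, 20, 21, 12, 11, 3, 16, 15, 19 and 7 in the same order up to the cell sources, all within 1.5 times the main counts. No paired analysis was possible for sham 24 h and the difference of changes because the control columns of the sham table carry no number of their samples. Under DESeq2's size factors the median of all genes moved to 0.11 at 48 h (main value 0.0069) and to 0.086 at 72 h (main value −0.045).

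Of the values of named members, 22 changed sign, and the cause was not tested. Lamb2 at 6 h was 0.018 with only the groups compared, and −0.28 to 0.020 with 1 library left out. With sham control as reference Itga10 (−0.46) and Itgav (0.76) at 24 h and Lamb1 (0.36) and Itga6 (0.82) at 48 h turned. Itgb5 at 72 h against 24 h was 0.050 with DESeq2's size factors, 0.049 with DESeq2, and −0.26 to 0.066 with 1 library left out. With 1 library left out, Itgav in AKI was −0.19 to 0.60. Against AKI with BM-MSC, Itgav was −0.011 to 0.75 and Itga6 −0.34 to 0.52 with 1 library left out. Itga9 was −0.15 (BM-MSC) and −0.11 (UC-MSC) against IRI 6 h. The Itgav difference of changes was −0.095 to 0.023 with 1 library left out. A further 56 values lost their call and 27 gained one, and 1132 kept both direction and call. Library depth was lowest at 72 h, where members of few counts rest on few libraries, such as Itga8 on library 1 and Itga11 chiefly on libraries 3 and 4.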

Other observations

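Members called higher at 24, 48 and 72 h had a median exonic GC content of 57.5%, 57.8% and 57.3%, and those called lower 47.7%, 44.1% and 48.9%, where all genes tested had 49.6%. Over all genes the medians were 52.1%, 51.2% and 51.3% for those called higher and 48.4%, 48.8% and 48.9% for those called lower. The part of GC content in the results was not tested.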
